A study of Mus musculus with 20 samples.

Results

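The 3 genomic copies of the microRNA miR-9 (Mir9-1, Mir9-2 and Mir9-3) were examined for DNA methylation in sorted nuclei of the mouse hypothalamus. The intervals described are those of the processed table that overlap windows of about 15 kb on either side of the 3 hairpins, on the mm9 assembly: chr3:88004500-88034500 for Mir9-1, chr13:83863400-83893400 for Mir9-2 and chr7:86635000-86665000 for Mir9-3. This gave 15 of the 50782 intervals, with 2 at Mir9-1, 2 at Mir9-2 and 11 at Mir9-3. The members within each window were chosen by position alone, but the loci were selected on read counts, after a Mir9-3 interval, chr7:86642731-86643606, had been found higher in neurons than in non-neurons at birth. The values of that interval are therefore a description, given without a test.

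MicroRNAs are short RNAs cut from a hairpin precursor, and pair through their seed with target messenger RNAs, which lowers the output of those messages. miR-9 is abundant in the vertebrate brain, where it is made by neural progenitors and acts in the switch from proliferation to neuronal differentiation. Its known targets in mouse include Nr2e1 (Tlx), a transcription factor of neural progenitors. In RefSeq annotation of GRCm38.p6 each hairpin lies within a long non-coding RNA gene: Gm3764 for Mir9-1, C130071C03Rik for Mir9-2 and Mir9-3hg for Mir9-3.

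The 3 loci are shown with their sequences because they give the same mature RNAs from different hairpins, so that methylation is a property of each copy and not of the product. All 3 entries matched in RefSeq (GRCm38.p6). Both mature strands are identical at the 3 loci, with the seed (bases 2 to 8) in capitals.
miR-9-5p: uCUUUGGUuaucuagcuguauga
miR-9-3p: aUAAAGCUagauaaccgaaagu
The hairpins, all on the plus strand, share these 2 strands, given below in capitals, and differ in the loop and the stem ends. They lie at chr3:88215598-88215686, chr13:83738814-83738885 and chr7:79505264-79505353 of GRCm38.p6, which is not the build of the interval table.
Mir9-1: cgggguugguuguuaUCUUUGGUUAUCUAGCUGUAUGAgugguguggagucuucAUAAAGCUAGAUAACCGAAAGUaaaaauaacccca
Mir9-2: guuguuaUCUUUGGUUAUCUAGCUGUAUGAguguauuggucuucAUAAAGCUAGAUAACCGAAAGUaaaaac
Mir9-3: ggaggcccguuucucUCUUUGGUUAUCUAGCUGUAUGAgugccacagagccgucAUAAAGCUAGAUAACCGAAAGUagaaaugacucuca
None of the 3 hairpins holds the assayed site CCCGGG (0 in each), so the methylation measured is that of flanking sites.

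Nuclei came from male C57BL/6 mice at postnatal day 21 (P21) and postnatal day 0 (P0), and were sorted by antibody to NeuN, a nuclear protein of neurons, into a stained fraction (neurons) and an unstained one (non-neurons). The 4 groups, P21 neurons, P21 non-neurons, P0 neurons and P0 non-neurons, each held 5 libraries called biological replicates, each from a pool of 2 hypothalami, with no transgene or treatment named. Non-neurons are every nucleus without NeuN, not a single cell type. The table lists intervals by position without gene names, so the sort was not checked against marker loci here. In methylation-specific amplification, SmaI first cuts unmethylated CCCGGG sites, XmaI then cuts the methylated ones, and adaptors join only XmaI ends. An interval is therefore amplified where the sites at both its ends are methylated, and its read count is a relative measure of that, not a percent of molecules. Counts are given as CPM, the reads per 1000000 reads of library size after TMM scaling, which aligns the bulk of intervals between libraries. A change in methylation within cells and a change in the mix of cells within a sorted group cannot be told apart.

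Libraries held 5663740 to 9998110 reads. Of all intervals 26679 had enough reads to be tested, among them 5 of the 15 miR-9 intervals. The other 10 held between 1 and 58 reads over all 20 libraries. A single read was worth 0.0880 to 0.180 CPM, so values near that size are 1 or a few reads. Replicates correlated at r = 0.964 to 0.983 within groups. P0 libraries split on the third principal component (5.06% of the variance) into replicates 1 to 3 and replicates 4 and 5: P0 neurons scored 30.2 to 44.2 in replicates 1 to 3 and -18.9 and -15.7 in replicates 4 and 5, and P0 non-neurons -16.2 to 9.22 and -42.6 and -27.2. The labels name no batch for it. P0 results are given with both subsets where a call or direction changes in either.

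**Figure D1:**
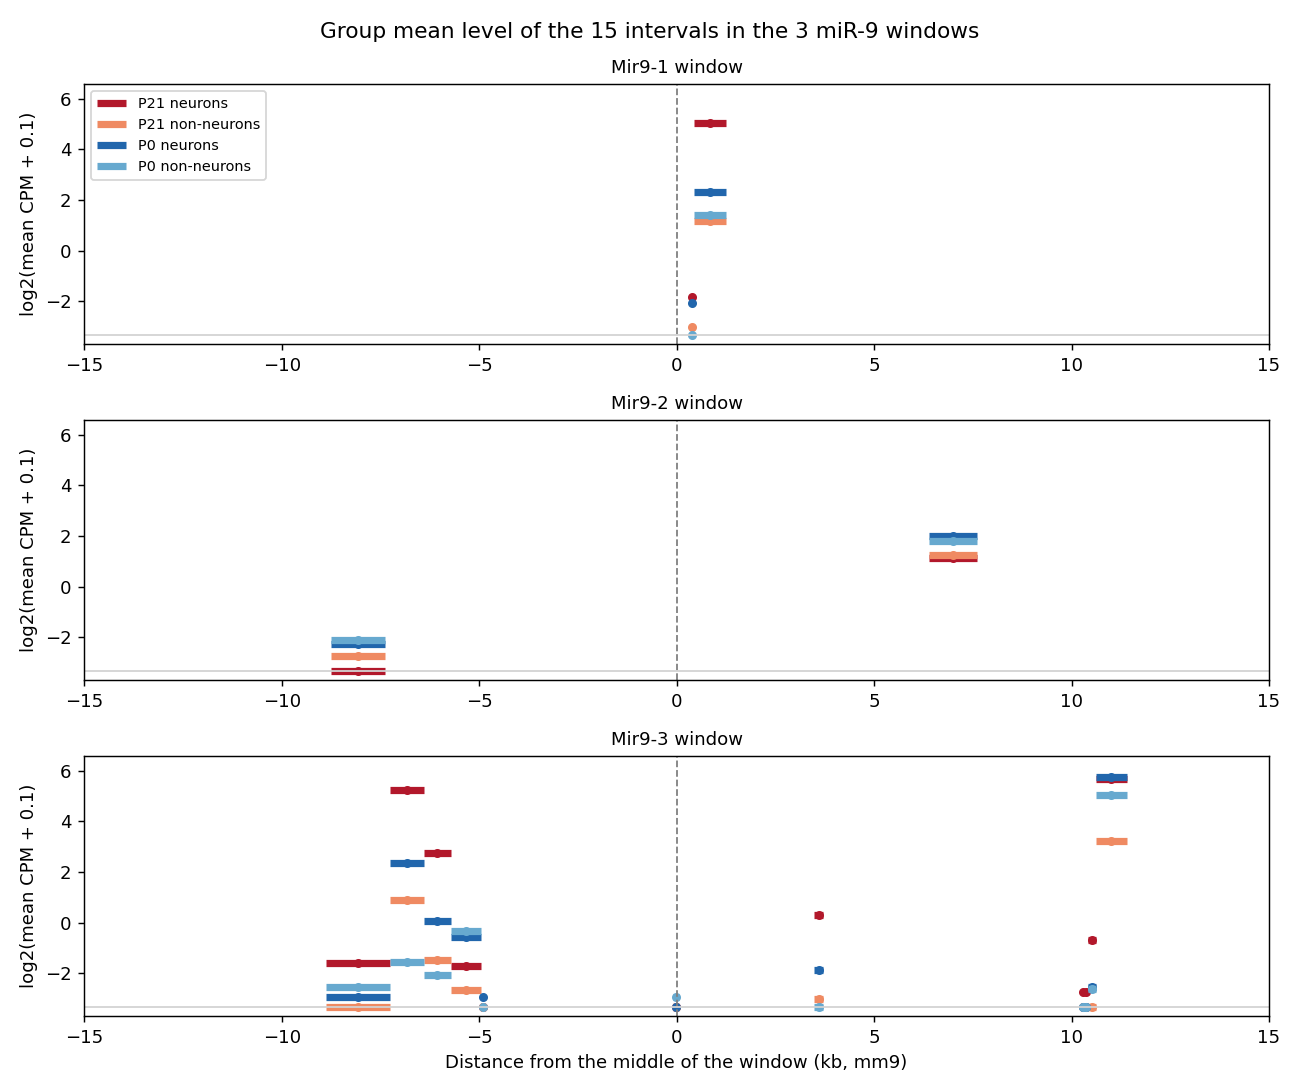
Group mean level, as log2(CPM + 0.1), of the 15 intervals against distance from the middle of each window in kb (dashed line). Bars span each interval, dots mark its centre, colours are the 4 groups and the grey line is 0 reads. P21 neurons (dark red) lie highest at the interval beside Mir9-1 (32.6 CPM) and at the interval of 875 bp before Mir9-3 (37.4 CPM), whereas the 4 groups lie close together at the better covered Mir9-2 interval (2.08 to 3.89 CPM).

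At Mir9-1, reads at chr3:88019936-88020757, an interval of 821 bp centred 846 bp after the middle of the window, were far more frequent in neurons of P21 mice than in any other group. The 5 libraries of P21 neurons had 34.1, 32.0, 36.0, 34.7 and 26.1 CPM, those of P21 non-neurons 2.37, 2.11, 2.84, 1.81 and 1.76 CPM. P0 neurons had 5.54, 4.20, 3.52, 6.52 and 4.85 CPM, and P0 non-neurons 2.75, 2.57, 2.31, 2.32 and 2.70 CPM. Neurons lay above non-neurons in every library at both ages, and P21 neurons lay above P0 neurons, while the non-neurons of the 2 ages overlapped. At P21 the means were 32.6 ± 3.89 CPM in neurons and 2.18 ± 0.45 CPM in non-neurons (SD, n = 5 each), or 14.8-fold higher in neurons (log2 ratio 3.89 with an SE of 0.18; adjusted p by edgeR = 9.34e-22). At P0 the means were 4.92 ± 1.17 CPM in neurons and 2.53 ± 0.21 CPM in non-neurons (SD, n = 5 each; log2 ratio 0.96 with an SE of 0.21; adjusted p by edgeR = 0.00101).

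The P0 difference at Mir9-1 was 0.80 on the log2 scale with P0 replicates 1 to 3 only (adjusted p by edgeR = 0.0786) and 1.17 with replicates 4 and 5 only (adjusted p by edgeR = 0.0368), and its adjusted p ran from 0.000449 to 0.0786 over the alternatives tried. With age the interval rose 6.61-fold in neurons (log2 ratio 2.72 with an SE of 0.16; adjusted p by edgeR = 9.59e-18). In non-neurons the age change was -0.21 in log2 units (SE 0.23; adjusted p by edgeR = 0.454; 95% interval -0.66 to 0.24), and 0.01 with library totals and 0.08 with the length trend removed. The neuron minus non-neuron difference was larger at P21 than at P0 by 2.93 ± 0.27 on the log2 scale (SE from both ages; adjusted p by edgeR = 1e-10 for the interaction of cell type and age).

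The only other interval in the Mir9-1 window, chr3:88019862-88019936, is 74 bp long and shares a cut site with it. It held 9 reads over the P21 neurons, 1 over the P21 non-neurons, 4 over the P0 neurons and 0 over the P0 non-neurons, too few to be tested. The nearest interval after the window, chr3:88044148-88045041, had 75.6 ± 9.09 CPM in P21 neurons, 10.1 ± 3.63 in P21 non-neurons, 11.9 ± 2.29 in P0 neurons, while P0 non-neurons had 6.65 ± 1.16 (SD, n = 5 each), the same order of cell types at each age. The nearest before it, chr3:87973578-87974397, had 146.3 ± 8.73, 172.8 ± 16.1, 304.4 ± 25.9 and 310.0 ± 14.8 CPM in the same 4 groups, with more reads at P0 than at P21.

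At Mir9-2 neither cell type stood out. Reads at chr13:83884785-83886008, an interval of 1223 bp centred 6996 bp after the middle of the window, ran from 1.81 to 2.42 CPM in P21 neurons (median 2.05), from 1.64 to 3.06 CPM in P21 non-neurons (median 2.09), from 2.99 to 5.31 CPM in P0 neurons (median 3.75) and from 2.16 to 5.45 CPM in P0 non-neurons (median 2.86). The cell types overlapped at both ages, and the 5 libraries of P21 neurons lay below the 5 of P0 neurons. Neurons and non-neurons differed by -0.11 ± 0.28 on the log2 scale at P21 (SE; adjusted p by edgeR = 0.792; 95% interval -0.67 to 0.44) and by 0.22 at P0 (SE 0.27; adjusted p by edgeR = 0.752; 95% interval -0.31 to 0.74). Both 95% intervals lie within 2-fold in either direction. The P0 difference was -0.16 with P0 replicates 1 to 3 only and 0.91 with replicates 4 and 5 only.

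With age the Mir9-2 interval fell in neurons by 0.91 in log2 units (SE 0.27; adjusted p by edgeR = 0.00453), to 2.08 ± 0.27 CPM in P21 neurons against 3.89 ± 0.87 CPM in P0 neurons (SD, n = 5 each). In non-neurons the change was -0.58 (SE 0.28; adjusted p by edgeR = 0.0779), with 2.26 ± 0.55 CPM in P21 non-neurons and 3.36 ± 1.32 CPM in P0 non-neurons (SD, n = 5 each). That value passed the threshold without P0 non-neurons replicate 4 (-0.70; adjusted p by edgeR = 0.041), without P21 non-neurons replicate 4 (-0.71; adjusted p by edgeR = 0.0476), with the length trend removed (-0.63; adjusted p by edgeR = 0.0485) and with P0 replicates 1 to 3 only (-0.85; adjusted p by edgeR = 0.0203), and was -0.07 with P0 replicates 4 and 5 only (adjusted p by edgeR = 0.904). The age changes of the 2 cell types were not told apart (interaction -0.33 ± 0.39, SE from both ages; adjusted p by edgeR = 0.663), with an interaction of 0.06 with P0 replicates 1 to 3 only and -1.01 with replicates 4 and 5 only. The other Mir9-2 interval, chr13:83869643-83871025, held 0 reads over the P21 neurons, 2 over the P21 non-neurons, 3 over the P0 neurons and 4 over the P0 non-neurons. No further interval was listed within 30 kb of the middle of this window.

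The Mir9-3 window held 3 tested intervals and the widest spread between groups. Its tested intervals lay in 2 stretches, before and after the hairpin, and the groups followed a different order in each. The interval that had drawn attention to the locus, chr7:86642731-86643606 (875 bp, centred at -6832 bp from the middle of the window), had 40.4, 36.5, 35.3, 35.7 and 39.0 CPM in P21 neurons and 1.53, 2.11, 1.24, 1.67 and 2.23 CPM in P21 non-neurons. It had 6.75, 3.90, 7.21, 3.78 and 3.79 CPM in P0 neurons and 0.153, 0.160, 0.408, 0.309 and 0.180 CPM in P0 non-neurons. The 4 groups did not overlap, in the order P21 neurons, P0 neurons, P21 non-neurons, P0 non-neurons from high to low. The P0 non-neuron values rest on 1 to 3 reads a library.

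By log2 fold change of neurons over non-neurons this interval ranked 48 of 26679 at P21 (4.40) and 1 of 26679 at P0 (4.25), a rank among fitted values that are uncertain at so few reads. The P0 rank restates the choice of the loci, which followed from the P0 excess of this interval, and is no separate result. Over pooled reads the ratio of neurons to non-neurons was 21.2 at P21 (1749 and 67 reads, 95% counting interval 16.6 to 27.4) and 20.1 at P0 (153 and 8 reads, 9.96 to 47.5). P21 over P0 gave 7.44 in neurons (1749 and 153 reads, 6.30 to 8.83) and 7.07 in non-neurons (67 and 8 reads, 3.39 to 17.0). These intervals cover counting error only, since reads were amplified, no molecular identifiers are named, and reads are not independent molecules. Nor do they allow for the choice of the loci by the P0 excess, which favours a large P0 ratio. They are therefore no test of that excess. Between the ages the log2 ratio of neurons over non-neurons differed by 0.15 at this interval. Its 95% interval was -0.63 to 0.92 from the standard errors of both ages, and -2.12 to 2.41 from the interaction's own SE. That own SE, the log2 fold change over the square root of F, is unreliable where the change is small, so the wider range is rough. The narrower range understates the error, since the P0 ratio alone, on 153 and 8 reads, had a counting interval of 9.96 to 47.5. Equal ratios at the 2 ages were therefore not established. The difference was -0.08 with P0 replicates 1 to 3 only and 0.57 with replicates 4 and 5 only. Without P0 non-neurons replicate 3, which held 3 of that group's 8 reads, it was -0.14.

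Its neighbour chr7:86643606-86644276 (670 bp) begins at the cut site where it ends, so their counts depend on a shared site and are no separate evidence. It is given without a test. It had 7.98, 5.72, 5.63, 6.16 and 7.69 CPM in P21 neurons, against 0.140, 0.421, 0.124, 0.278 and 0.352 CPM in P21 non-neurons. P0 neurons had 1.04, 0.450, 1.41, 0.858 and 0.910 CPM, and P0 non-neurons 0, 0.160, 0.544, 0 and 0 CPM. P21 neurons lay above every other library, and P0 neurons overlapped P0 non-neurons through replicate 3 of the P0 non-neurons, which held 4 of that group's 5 reads. Pooled reads were 307 and 10 in P21 neurons and P21 non-neurons (ratio 24.9, 95% counting interval 13.4 to 52.4) and 28 and 5 in the neurons and non-neurons of P0 (5.89, 2.25 to 19.5). Both intervals cover counting error only, leave out the spread between libraries, and are no test. The P0 log2 ratio of neurons over non-neurons was 2.45, and 1.87 with P0 replicates 1 to 3 only and 5.82 with replicates 4 and 5 only. The log2 ratio of P21 over P0 in non-neurons was 0.71 and moved to 2.29 without P0 non-neurons replicate 3, to 0.07 with P0 replicates 1 to 3 only and to 4.12 with replicates 4 and 5 only.

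**Figure D2:**
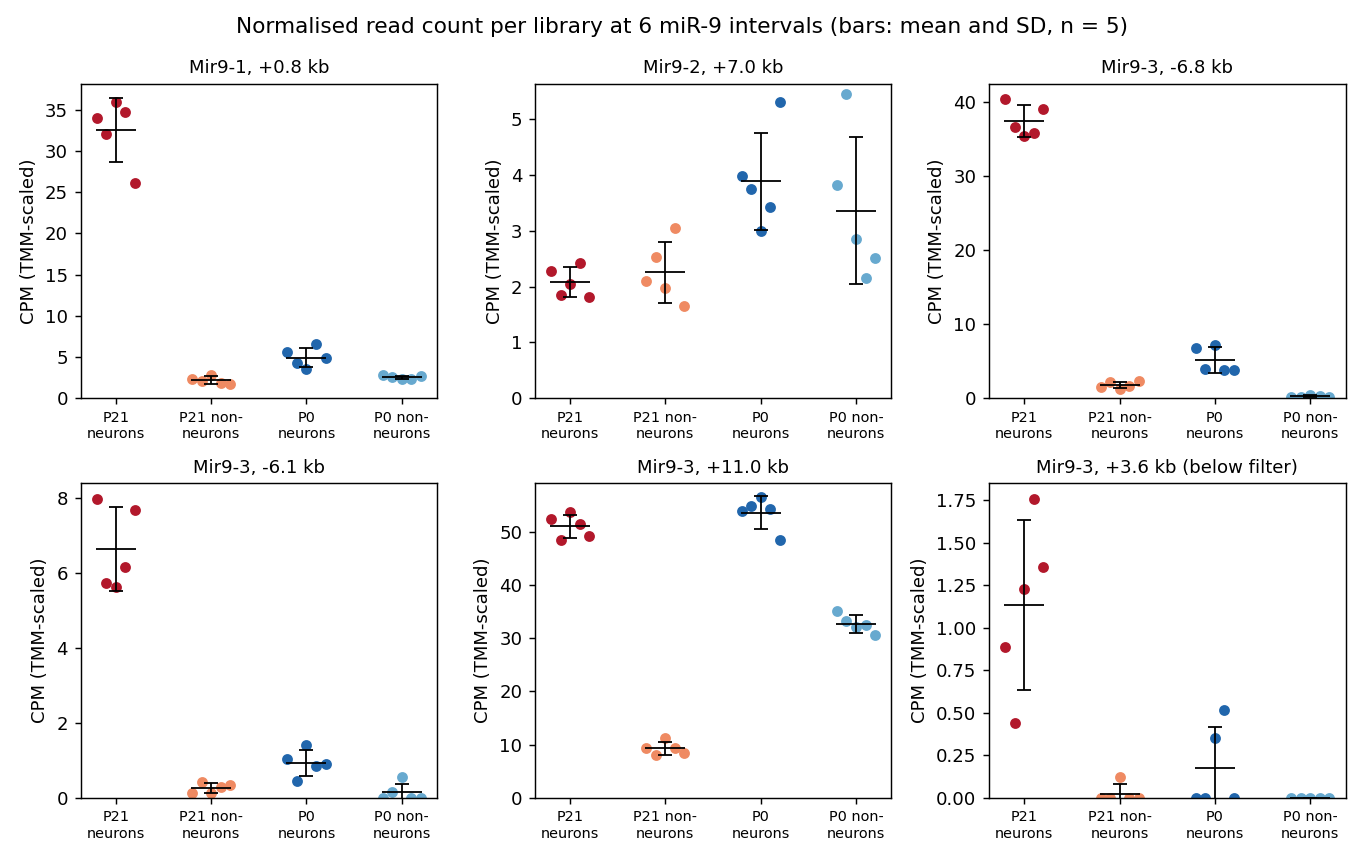
CPM in each library of 6 miR-9 intervals, named by window and by distance of the centre from the window's middle, with 5 points per group and black bars for the mean and SD (cut at 0). The axis of each panel starts at 0. P21 neurons are the highest group at the Mir9-1 interval and at 3 Mir9-3 intervals, whereas at the last tested Mir9-3 interval P21 neurons (48.5 to 53.7 CPM) and P0 neurons (48.5 to 56.6 CPM) overlap and P21 non-neurons (8.0 to 11.3 CPM) are lowest.

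Further along the same chain of touching intervals the counts were low. The next interval, chr7:86644276-86645057 (781 bp), held 9 reads over the P21 neurons, 7 of them in replicate 4, and 2 over the P21 non-neurons. P0 neurons held 18 and P0 non-neurons 23. P21 over P0 was 0.325 in neurons (95% counting interval 0.129 to 0.763; not called with no filter), whereas the touching interval before it gave 7.13 (4.84 to 10.9). In a fit with no filter on low counts it fell with age in non-neurons (ratio 0.0734, 95% counting interval 0.00839 to 0.297; adjusted p by edgeR = 0.00211), where 19.3% of 44545 intervals fell. The first of the chain, chr7:86641135-86642731 (1596 bp), held 11, 0, 1 and 2 reads over the P21 neurons, P21 non-neurons, P0 neurons and P0 non-neurons, and the last, chr7:86645057-86645128 (71 bp), held a single read, in P0 neurons. An interval needs both ends methylated and also depends on length, so low counts at a neighbour do not show which site differs.

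After the hairpin, chr7:86660620-86661399 (779 bp, centred 11009 bp after the middle of the window) was the best covered miR-9 interval, and here non-neurons were the group that changed. P21 neurons had 52.4, 48.5, 53.7, 51.5 and 49.2 CPM and P21 non-neurons 9.34, 8.0, 11.3, 9.45 and 8.46 CPM. P0 neurons had 54.0, 54.9, 56.6, 54.2 and 48.5 CPM and P0 non-neurons 35.2, 33.2, 32.1, 32.4 and 30.6 CPM. Every neuronal library lay above every non-neuronal library, neurons of the 2 ages overlapped, and P21 non-neurons lay below P0 non-neurons.

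The fall with age in non-neurons was 3.51-fold (log2 ratio -1.81 with an SE of 0.11; adjusted p by edgeR = 3.9e-17), to 9.30 ± 1.25 CPM at P21 against 32.7 ± 1.67 CPM at P0 (SD, n = 5 each). In neurons the age change was -0.07 in log2 units (SE 0.09; adjusted p by edgeR = 0.527; 95% interval -0.25 to 0.11), with 51.1 ± 2.19 CPM at P21 and 53.6 ± 3.04 CPM at P0 (SD, n = 5 each). The sign of that neuronal value depended on the processing: with each library's trend on interval length removed it was 0.19 (adjusted p by edgeR = 0.0416, within a range of 0.0416 to 0.97 over the alternatives), and with library totals it was 0.13. Neurons exceeded non-neurons 5.48-fold at P21 (log2 ratio 2.45 with an SE of 0.11; adjusted p by edgeR = 2.41e-22) and 1.64-fold at P0 (log2 ratio 0.71 with an SE of 0.10; adjusted p by edgeR = 2.72e-07). The difference between cell types grew with age by 1.74 ± 0.14 on the log2 scale (SE from both ages; adjusted p by edgeR = 1.11e-12 for the interaction).

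Of the 5 remaining Mir9-3 intervals, chr7:86653489-86653717 (228 bp, centred 3603 bp after the middle) was read mainly in P21 neurons. Its 5 P21 neuron libraries held 7, 5, 12, 16 and 12 reads (0.887, 0.440, 1.23, 1.76 and 1.36 CPM), and those of P21 non-neurons 0, 0, 1, 0 and 0. P0 neurons held 0, 0, 2, 3 and 0 reads and P0 non-neurons 0 in all 5. The interval missed the filter. With no filter on low counts it was higher in neurons at P21 (adjusted p by edgeR = 1.13e-05; ratio 42.2 on 52 and 1 reads, 95% counting interval 7.24 to 1697) and rose with age in neurons (adjusted p by edgeR = 0.00214; ratio 6.77, 2.72 to 21.7). The interval chr7:86660421-86660620 (199 bp), which touches the best covered one, held 24 reads over the P21 neurons and 0 over the P21 non-neurons. Against a floor of 3 reads over the group, P21 neurons were 6.49-fold higher, a value that leaves out the counting error of the 24 reads. The 95% counting interval of the ratio begins at 4.88. There were 2 reads over the P0 neurons and 2 over the P0 non-neurons. With no filter it rose with age in neurons (adjusted p by edgeR = 0.0219) and was higher in neurons at P21 (adjusted p by edgeR = 0.000639). Its counts depend on a cut site shared with the best covered interval, so they are not independent of it. The best covered interval changed little with age in neurons (log2 ratio -0.07), so the rise here, on 24 and 2 reads, was not shared by it. The interval chr7:86641135-86642731 ends at the cut site where the interval that had drawn attention to the locus begins. Because of that shared site it is given without a test. In the fit with no filter 13% of 44545 intervals were higher in neurons at P21 and 19.7% rose with age in neurons.

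The remaining members were close to empty. The interval that spans the middle of the Mir9-3 window, chr7:86649902-86650057 (155 bp), held 1 read in all, in P0 non-neurons. For the other groups 0 reads over 5 libraries allow up to 0.0639 CPM in P21 neurons, 0.0788 in P21 non-neurons and 0.0982 in P0 neurons, for counting error only. The short intervals chr7:86660246-86660335 (89 bp) and chr7:86660335-86660421 (86 bp) held 2 reads each, all in P21 neurons. Nearest outside the window, chr7:86615102-86616730 had 4.75 ± 0.90 CPM in P21 neurons, 4.27 ± 0.72 in P21 non-neurons, 2.35 ± 0.64 in P0 neurons, while P0 non-neurons had 1.81 ± 0.75. On the other side chr7:86680216-86680849 had 0.388 ± 0.11, 0.0279 ± 0.062, 0.250 ± 0.26 and 0.503 ± 0.21 CPM in the same groups (SD, n = 5 each).

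RefSeq lists 2 starts for the host gene Mir9-3hg in GRCm38.p6, each with a window of 300 bases, and the second is shown because it carries assayed sites on the same side of the hairpin as the best covered interval. The window of the first, chr7:79499776-79500075, lies before the hairpin and holds 0 CCCGGG sites. The second lies after the hairpin on the same strand, so a transcript from it would not include the hairpin. The window of the second, chr7:79515185-79515484 on the plus strand, begins 9921 bases after the start of the hairpin and holds 3, given in capitals, at positions 156, 176 and 265 from its 5′ end.
Mir9-3hg second start: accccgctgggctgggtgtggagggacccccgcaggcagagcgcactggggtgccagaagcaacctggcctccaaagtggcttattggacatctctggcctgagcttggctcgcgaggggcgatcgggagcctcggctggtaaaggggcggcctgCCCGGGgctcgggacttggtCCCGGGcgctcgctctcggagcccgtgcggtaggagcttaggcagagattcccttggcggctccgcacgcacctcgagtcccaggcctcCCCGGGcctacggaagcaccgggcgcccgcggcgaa
The motif reads the same on both strands, and 13.5% of the 32851 RefSeq promoter windows hold it. The last 2 of these sites are 89 bases apart. The table holds 70 intervals of 89 bp (0.138% of all), of which 1 lies in the miR-9 windows: chr7:86660246-86660335, centred 10290 bp after the middle of the Mir9-3 window on mm9 and read 2 times in 20 libraries. No position was converted between builds, so the placement of that interval at this start was not established.

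The counts that follow are a description only. They include chr7:86642731-86643606, for whose P0 excess in neurons the loci were picked, and its neighbour on a shared cut site, which passed the filter through P21 neurons alone. At P21, 4 of the 5 tested intervals were higher in neurons, where 20.8% of all tested intervals were higher, and 0 lower, where 15% were. At P0 the same 4 were higher in neurons, against 6.92% of all tested, and 0 lower, against 2.86%. With P0 replicates 1 to 3 only, 2 were called there, and nothing is read from the P0 count. With age 3 rose in neurons (31% of all rose) and 1 fell (26.3% of all fell). In non-neurons 1 rose (28.5% of all rose) and 1 fell (25.8% of all fell). The interaction was positive at 2 (10.9% of all) and negative at 0 (3.24% of all). The median log2 fold change of the 5 was 3.89 for neurons over non-neurons at P21 (-0.06 over all tested), 0.96 for the same at P0 (0.01), 2.72 for P21 over P0 in neurons (0.06), -0.21 for P21 over P0 in non-neurons (0.03) and 1.74 for the interaction (-0.05). Comparisons that share a group share its libraries, so these values are not independent of each other.

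**Figure D3:**
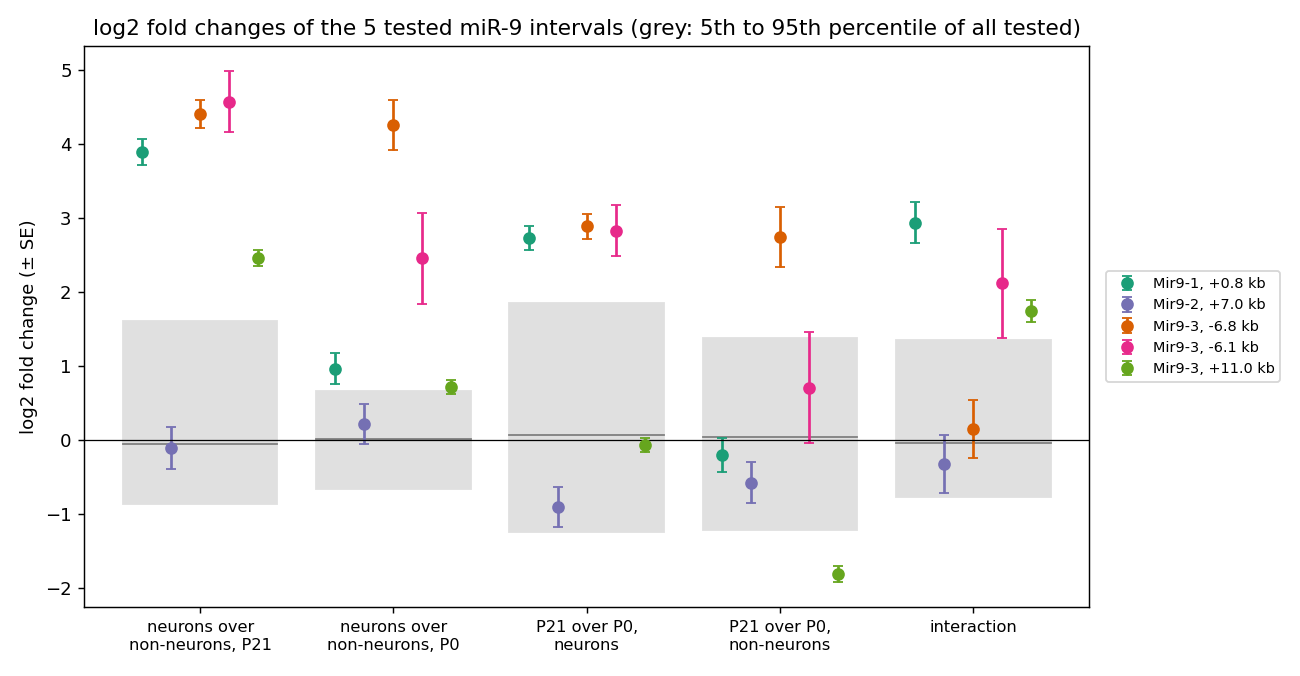
log2 fold change with its SE of the 5 tested miR-9 intervals in each comparison (interaction: SE from both ages), named by window and distance from its middle in kb, over a grey band from the 5th to the 95th percentile of all 26679 tested intervals with their median as a line. The Mir9-2 interval lies inside the band in all 5 comparisons, whereas the Mir9-1 interval lies above it for neurons over non-neurons at both ages, for P21 over P0 in neurons and for the interaction.

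Over the 20 libraries the Mir9-1 interval and the first 2 tested Mir9-3 intervals varied alike. Their log2 CPM correlated at r = 0.89 and 0.93 with Mir9-1 and at r = 0.96 with each other, whereas the Mir9-2 interval correlated with the 3 at r = -0.36 to -0.30. These are descriptions over libraries that fall into 4 groups, and the last pair also shares a cut site. Among all tested intervals the mean log2 CPM of the 5 stood at percentile 1.51 for chr7:86643606-86644276, 24.6 for the Mir9-2 interval, 29.9 for chr7:86642731-86643606, 40.6 for the Mir9-1 interval and 73 for chr7:86660620-86661399, so that 4 of the 5 lay below the median.

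Outside the windows, the intervals whose log2 CPM followed the Mir9-1 interval most closely over the 20 libraries were chr9:48719009-48719730 (r = 0.98), chr10:60263775-60264374 (r = 0.98) and chr11:116556139-116556741 (r = 0.98). The last of them had 93.3 ± 9.19 CPM in P21 neurons, 3.84 ± 0.82 in P21 non-neurons, 8.70 ± 1.15 in P0 neurons, while P0 non-neurons had 4.77 ± 2.05 (SD, n = 5 each). For chr7:86642731-86643606 they were chr4:108898007-108898379 (r = 0.98), chr12:119768027-119768594 (r = 0.98) and chr15:84672853-84673420 (r = 0.97). The interval on chromosome 12 had 54.2 ± 6.91, 1.86 ± 0.49, 7.40 ± 2.09 and 0.765 ± 0.37 CPM in the same 4 groups. Correlations above 0.95 were found for 82 intervals with the Mir9-1 interval and for 37 with the Mir9-3 interval, but for 0 with the Mir9-2 interval, whose closest, chr4:140371066-140371768, reached r = 0.85.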

How the data were processed

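Methylation-specific amplification was sequenced from 20 libraries. Values deposited by the authors are read counts, 1 whole number per library for each SmaI/XmaI interval of 60 to 3000 bp, with no scaling. Bowtie 0.12.9, cutadapt, FastQC 0.10.1 and mm9 are named in the submitters' processing notes; how reads were assigned to intervals is not given there. Columns were matched by age, cell type letter and replicate number, and 0 belonged to other samples.

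Low intervals were removed in edgeR 4.0.16 (filterByExpr, min.count 10, min.total.count 15) and the rest scaled by TMM and fitted with 1 mean per group over all 20 libraries (glmQLFit, robust; R 4.3.3). Contrasts were tested with glmQLFTest, and a Benjamini-Hochberg adjusted p under 0.05 over the 26679 tested intervals was called. SE is the log2 fold change over the square root of F. Log2 CPM uses a prior count of 2. Functions were tested on simulated counts. The alternatives included DESeq2 1.42.0 and limma 3.58.1 (voom). Counting intervals are exact binomial at 95%. Intervals named in full had a highest group mean of at least 1 CPM and 2 times the lowest. The members, lists and tests were chosen with earlier results of these data known. p-values set the difference between groups against the spread between libraries of pooled hypothalami, a spread estimated with the help of all tested intervals. Plots used matplotlib 3.10.9.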

Additional observations from a re-analysis of the deposited data

Results flagged for a closer look

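The difference between neurons and non-neurons changed with age, by the test of the interaction, at 2 of the 5 tested intervals: chr3:88019936-88020757 at Mir9-1, by 2.93 on the log2 scale, and chr7:86660620-86661399 at Mir9-3, by 1.74. In the first the neurons rose, and in the second the non-neurons fell. Over all tested intervals the interaction was called positive at 10.9% and negative at 3.24%. The 5 include the interval for which the loci were picked and its neighbour on a shared cut site. The count of 2 is therefore a description only. Among 24 sets of 5 libraries examined for a library far from the others, 1 stood out: P21 non-neurons replicate 3 at chr7:86653489-86653717, with 0.124 CPM, which is a single read, where the other 4 libraries had 0. Chance alone marks about 1 set in 20 where values are normally distributed. That rate does not hold for this set, because a single read among libraries with 0 is always marked.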

How the results depend on the processing

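Of 792 log2 fold changes of the 5 tested intervals under 32 alternatives, 774 kept their direction and side of the threshold, 6 passed it newly, 2 lost it and 10 changed sign, none of them from a called value. Age in neurons at chr7:86660620-86661399 (-0.07) was 0.19 after removal of the length trend, where it was called, and 0.13 with library totals. Age in non-neurons at chr3:88019936-88020757 (-0.21) was 0.0805 and 0.0106 under the same settings. At chr13:83884785-83886008, neurons against non-neurons was 0.0158 at P21 without P21 non-neurons replicate 4 (against -0.11, with -0.21 to 0.0158 over all single libraries left out), and with P0 replicates 1 to 3 only it was -0.16 at P0 (against 0.22) and the interaction 0.058 (against -0.33). The interaction at chr7:86642731-86643606 (0.15) was -0.14 without P0 non-neurons replicate 3, up to 0.30 without another library and -0.0779 with P0 replicates 1 to 3 only. That at chr7:86643606-86644276 (2.12) was 2.71 with P0 replicates 1 to 3 only and -1.24 with P0 replicates 4 and 5 only. The number of miR-9 intervals called was 2 in place of 4 for neurons against non-neurons at P0 with P0 replicates 1 to 3 only, a subset chosen after seeing the data, and 7 in place of 4 at P21 with no filter on low counts, where more intervals are tested. The P21 counts include intervals on shared cut sites and are a description only. It was 1 in place of 2 for P21 against P0 in non-neurons with only the compared groups, where chr7:86642731-86643606 falls below the filter. Leaving out each library gave 4 for both cell type comparisons and for age in neurons, 2 for the interaction and 2 to 3 for age in non-neurons. Calls over all intervals fell to 978 at P0, against 2610, and to 2172 for the interaction, against 3772, with P0 replicates 4 and 5 only.

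Same-numbered libraries correlated at -0.0831 to 0.322 in their deviations from group means, and 5 of 20 correlated best with their own number. The 20 include pairs across ages, which cannot share a pool. Between neurons and non-neurons of 1 age, own numbers matched best for P0 replicates 3 and 5 and P21 replicates 2 and 4, and not for the rest. The check therefore does not decide whether the numbers are pairs, and they were not taken as such. The labels do not say which neuronal and non-neuronal libraries came from the same pool. With the replicate number as a block the counts of called miR-9 intervals were 4, 4, 4, 2 and 2, as without it. Scaling moved the share of all calls that were higher: in neurons at P21 from 58.1% to 45.8% with library totals and 32.5% with upper quartiles, at P0 from 70.8% to 58.5% and 51.1% (56.2% with the length trend removed), and for the interaction from 77.1% to 56.2% with upper quartiles and 65.5% with the length trend removed. With totals 69.1% (neurons) and 70.6% (non-neurons) of age calls rose, against 54.1% and 52.5%, and the median of all intervals was 0.26 in both, against 0.06 and 0.03. Windows of 5 kb on either side held 2, 0 and 4 intervals at Mir9-1, Mir9-2 and Mir9-3, and windows of 30 kb held 6, 2 and 11.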
